A study of Mus musculus with 8 samples.

Results

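The Gja5 arterial cells of MT-ret melanoma are a small group of tumor blood endothelial cells, 90 of 3170 scored cells of the blood endothelial sort (2.84%, 95% exact Clopper-Pearson interval 2.29 to 3.48%). Sets of genes were scored in each cell as the mean of the natural log of 1 plus the unique molecular identifiers (UMIs) per 10000, and each score was centred and scaled over the scored cells to give a z value. The sets were Gja5, Sema3g and Stmn2; Ackr1, Selp and Vwf; Apln, Tnfrsf9 and Kit; Npr3, Vegfc and Dkk2; and Aplnr and Ramp3. A cell was a member if the set of Gja5, Sema3g and Stmn2 had the highest z, if that z was over 2 and if the cell had at least 1 Gja5 UMI. The matrix held 7635 cells in all, of which 3228 came from the blood endothelial (BEC) sort and 4407 from the lymphatic endothelial (LEC) sort. From the BEC sort, 58 cells with 20 or more UMIs of the pigment genes Dct, Tyrp1, Pmel and Tyr or of the stromal genes Col3a1 and Rgs5 were left out before scoring.

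MT-ret is a transplantable mouse melanoma, and its fragments had been grafted ventrally on the flank in C57BL/6N mice, 10 in all. The name comes from mice in which the metallothionein promoter drives the RET oncogene. All cells came from grafts in 1 strain, and the labels give no second genotype, treatment or time, and no age. From each sort, 10000 cells were taken for 4 libraries of the Chromium 3′ kit (v2), which counts molecules at the 3′ end of transcripts. The names of the cells gave the sort but no library or animal, so each sort was 1 sample. No p-value or standard error could be given, and every interval below is at the 95% level and covers counting error only.

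Arteries are lined by endothelial cells that differ from those of capillaries and veins in their connexins, in Notch signalling and in the wall they help to build. Gja5 encodes connexin 40, a gap junction protein that in blood vessels marks arterial endothelium, and Gja4 encodes connexin 37, its usual partner there. Notch signalling and the SoxF transcription factors promote arterial identity, the nuclear receptor encoded by Nr2f2 promotes venous identity, and arterial walls are rich in elastic fibres. In tumors many vessels are immature and the arterial and venous order is often disturbed.

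The members were not deeper than the cells around them. Their median depth was 18936 UMIs (7015 to 53505) and 2814 genes, against 19416 UMIs and 2839 genes in the 3080 other scored BEC, and mitochondrial UMIs made up a median of 3.20% and 3.41%. A single member lay above 44918 UMIs, the 95th percentile of the scored BEC. Doublets were not called. Summed over cells, the members held 1778178 UMIs and the other scored BEC 67886045, so 3 UMIs were worth 1.69 and 0.0442 CPM (a gene's UMIs per 1000000 UMIs of the group). In the matrix 34 barcodes occurred in both sorts, and 2 members carried one of them.

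The rule chose the members by the levels of 3 genes, which are given as a description. Gja5 (chromosome 3, 96904693 to 97077416, plus strand, GRCm38, GENCODE M21) ranged in the members from 0.187 to 21.4 UMIs per 10000 with a median of 4.48, and summed to 521 CPM against 6.82 CPM in the other scored BEC. Stmn2 (chromosome 3, 8509360 to 8561606, plus strand), which encodes the microtubule-destabilizing protein stathmin 2 best known from neurons, had a median of 15.6 and a highest value of 50.3 UMIs per 10000, and 5 members had none. Sema3g (chromosome 14, 31217860 to 31230352, plus strand), a secreted semaphorin of arterial endothelium, had a median of 0.538 and a highest value of 14.4, and 39 members had none. All 3 genes were found together in 46 members, and 6 members had exactly 1 Gja5 UMI. The scores of the members therefore came from Gja5 and Stmn2 more often than from Sema3g.

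The arterial z of the members ran from 2.01 to 7.06 with a median of 3.82. Just inside the threshold, 9 members had a z of 2 to 2.5, with a median of 2.28. Just outside, 10 cells with a Gja5 UMI and the arterial set highest had a z of 1.51 to 1.98, with a median of 1.88. The set of Npr3, Vegfc and Dkk2 was the next highest in the members, with a median z of 0.97, while the medians of the other 3 sets were -0.36, -0.91 and -1.29. The rule also divided cells that share part of the profile. In all, 242 scored BEC had a Gja5 UMI, and 152 of them were not members, of which 64 had the Npr3 set highest. Conversely, 67 cells had the arterial set highest with a z over 2 and no Gja5 UMI.

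The rule demands a Gja5 UMI of every member, so shares of cells with Gja5 are a description. A Gja5 UMI was present in 4.94% of the other scored BEC (4.20 to 5.76%), in 0.170% of 4119 LEC-sort cells without pigment or stromal UMIs over the limits, and in 0 of 301 cells with 20 or more pigment UMIs, a count that allows a share of up to 0.997% (3 counts of the total). Median depths in these 3 groups were 19416, 10591 and 28171 UMIs. After each cell was thinned to 5000 UMIs, 83.3% of the members, 2.21% of the other scored BEC and 0.121% of the LEC-sort cells had a Gja5 UMI. Among cell classes, each taken as the cells in which another set had the highest z and a z over 1, Gja5 was at 26.1 CPM in the 422 Npr3, Vegfc and Dkk2 cells, 2.63 CPM in the 285 Ackr1, Selp and Vwf cells, 1.59 CPM in the 466 Aplnr and Ramp3 cells and 1.51 CPM in the 388 Apln, Tnfrsf9 and Kit cells. Across the 3170 scored cells the genes whose log levels followed Gja5 most closely were Gja4 (Pearson r of 0.42), Stmn2 (0.39), St8sia6 (0.32), Fads3 (0.31), Fbln5 (0.29), Htra1 (0.29), Ly6a (0.26) and Sema3g (0.24). These correlations are over cells of 1 sample that share libraries and differ in depth, and Stmn2 and Sema3g belong to the rule.

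**Figure D1:**
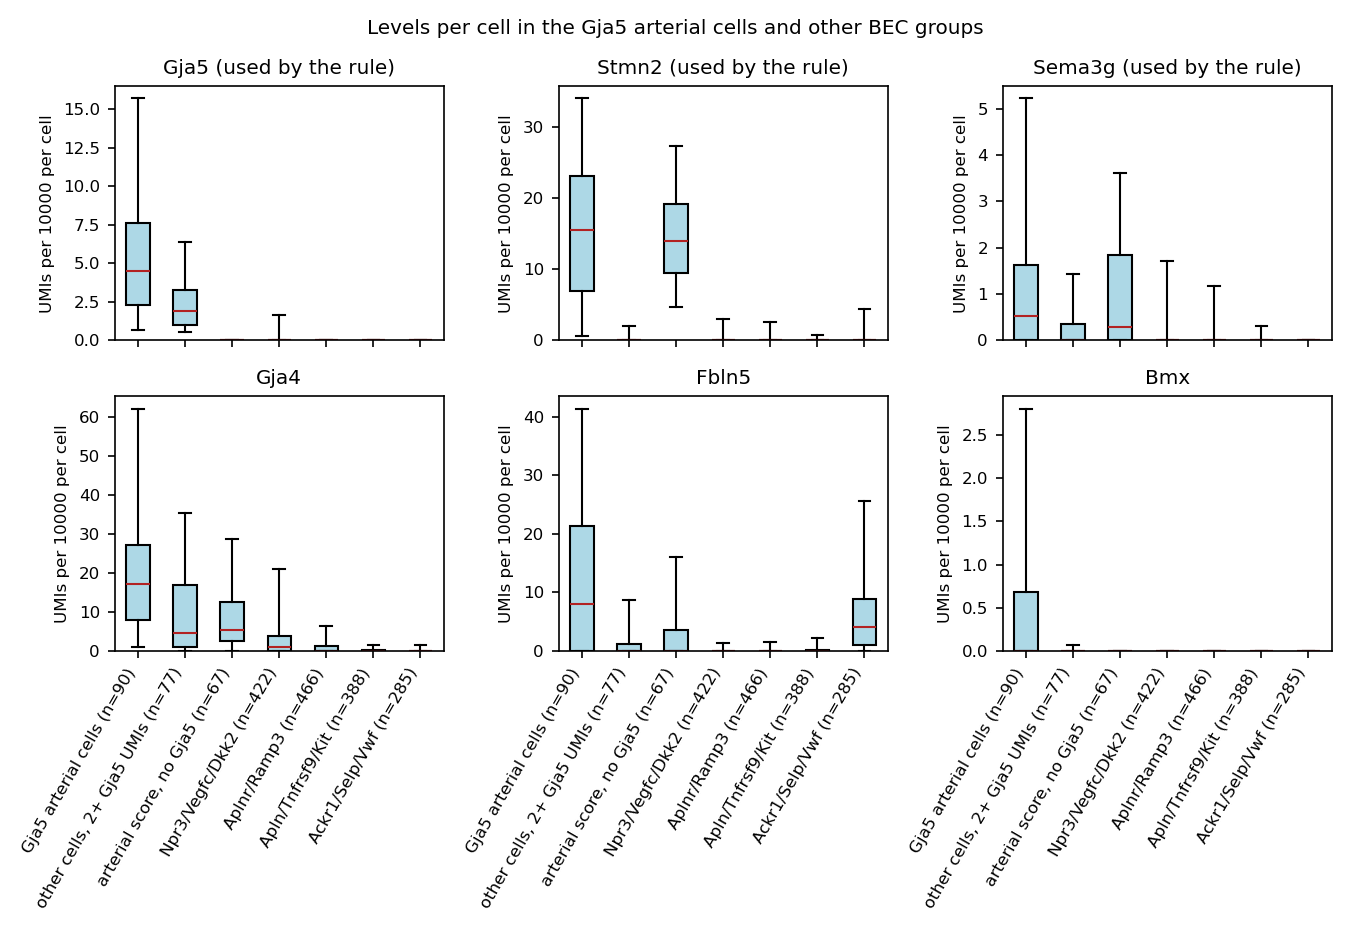
UMIs per 10000 per cell of 6 genes in the Gja5 arterial cells and 6 other groups of BEC; boxes span the quartiles with the median in red, and whiskers reach the 5th and 95th percentiles. Gja4 had a median of 17.2 in the members, 4.69 in other cells with at least 2 Gja5 UMIs, 5.27 in cells with a high arterial score and no Gja5, and 0 to 0.935 in the other 4 classes; Fbln5 was also present in the Ackr1, Selp and Vwf cells, at a median of 4.12.

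The members were set against the other scored BEC over all genes to describe what else marks them. Of 7368 genes with a mean of at least 10 CPM over both groups, 367 (4.98%) were at least 2-fold higher in the members and 274 (3.72%) at least 2-fold lower, with a median log2 ratio of 0.02. Log2 ratios are of CPM with 1 CPM added. The members and the comparison cells were chosen from the same counts, so these values describe the group and do not test it.

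Arterial genes that the rule did not use were nearly all higher. Their list was chosen with earlier results of these data known, so the count is a description. Of 18 arterial markers, 17 reached the level for comparison, 16 of these were at least 2-fold higher and 0 at least 2-fold lower, and the median log2 ratio was 1.53. Gja4 (chromosome 4, 127311421 to 127314039, minus strand) had the highest log2 ratio of the ranked genes. In single members it ran from 0 to 97.5 UMIs per 10000 with a median of 17.2, and in the other scored BEC from 0 to 79.6 with a median of 0. The ranges overlapped, but the median of the members lay above the 95th percentile of each of the 4 other classes except the Npr3, Vegfc and Dkk2 cells, where that percentile was 21.0. Summed, Gja4 was at 2315 CPM (2245 to 2387) against 176 CPM (172 to 179), 13.2-fold higher (12.7 to 13.7). A Gja4 UMI was found in 95.6% of the members, 39.9% of the other scored BEC and 45.2% of the LEC-sort cells, against 42 of 301 pigment cells.

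Fbln5 (chromosome 12, 101746565 to 101819055, minus strand), which encodes fibulin 5, a protein needed for elastic fibre assembly, ran from 0 to 54.6 UMIs per 10000 in the members with a median of 7.99. In the other scored BEC it ran from 0 to 59.3 with a median of 0. Its sum was 1246 CPM against 110 CPM, 11.4-fold higher (10.8 to 11.9). A Fbln5 UMI was found in 72.2% of the members, 30.4% of the other scored BEC, 66.5% of the LEC-sort cells and 91.4% of the pigment cells, so Fbln5 transcripts were common in other cells of these tumors. The summed melanocytic markers were at 32.1 CPM in the members and 30.4 CPM in the other scored BEC, with Mlana, Sox10, Pmel and Tyr at 0 in the members.

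The ephrin ligand Efnb2, a classical arterial gene, was at 190 CPM against 67.9 CPM and the chemokine Cxcl12 at 490 CPM against 98.9 CPM, a ratio of 4.96 (4.61 to 5.32). The netrin receptor Unc5b was at 175 against 59.8 CPM and the transcriptional regulator Mecom at 125 against 44.6 CPM. Tmem100, a target of the receptor kinase encoded by Acvrl1, was at 72.6 against 5.13 CPM, and the kinase gene Bmx, a known marker of arterial endothelium, at 61.3 against 1.64 CPM. Bmx was found in 30.0% of the members (20.8 to 40.6%) and 1.33% of the other scored BEC, against 7.31% of the LEC-sort cells. The chemokine receptor Cxcr4 was the exception in the list, at 15.2 CPM against 18.0 CPM. Alpl was too low to be compared by the same minimum, at 15.8 CPM in the members against 0.663 CPM.

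The ranking also named genes with no place in the list of arterial markers. St8sia6, a sialyltransferase gene, was 14.2-fold higher (11.9 to 16.9), the desaturase family gene Fads3 11.2-fold (9.84 to 12.7) and the receptor tyrosine phosphatase gene Ptprr 11.1-fold (9.74 to 12.5). Slc27a3, of the fatty acid transport family, was 10.3-fold higher, Pcp4l1 9.81-fold, the angiogenic factor gene Aggf1 6.87-fold, the sialyltransferase gene St6galnac2 6.73-fold, the claudin gene Cldn15 5.99-fold, Hacd4 5.54-fold and Lrrc3b 4.87-fold. Ly6a, which encodes the surface antigen Sca-1, was at 3996 CPM against 750 CPM, 5.33-fold higher (5.20 to 5.46). It was found in 98.9% of the members, from 0 to 126 UMIs per 10000 with a median of 32.4, and the median of the other scored BEC was 4.25.

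**Figure D2:**
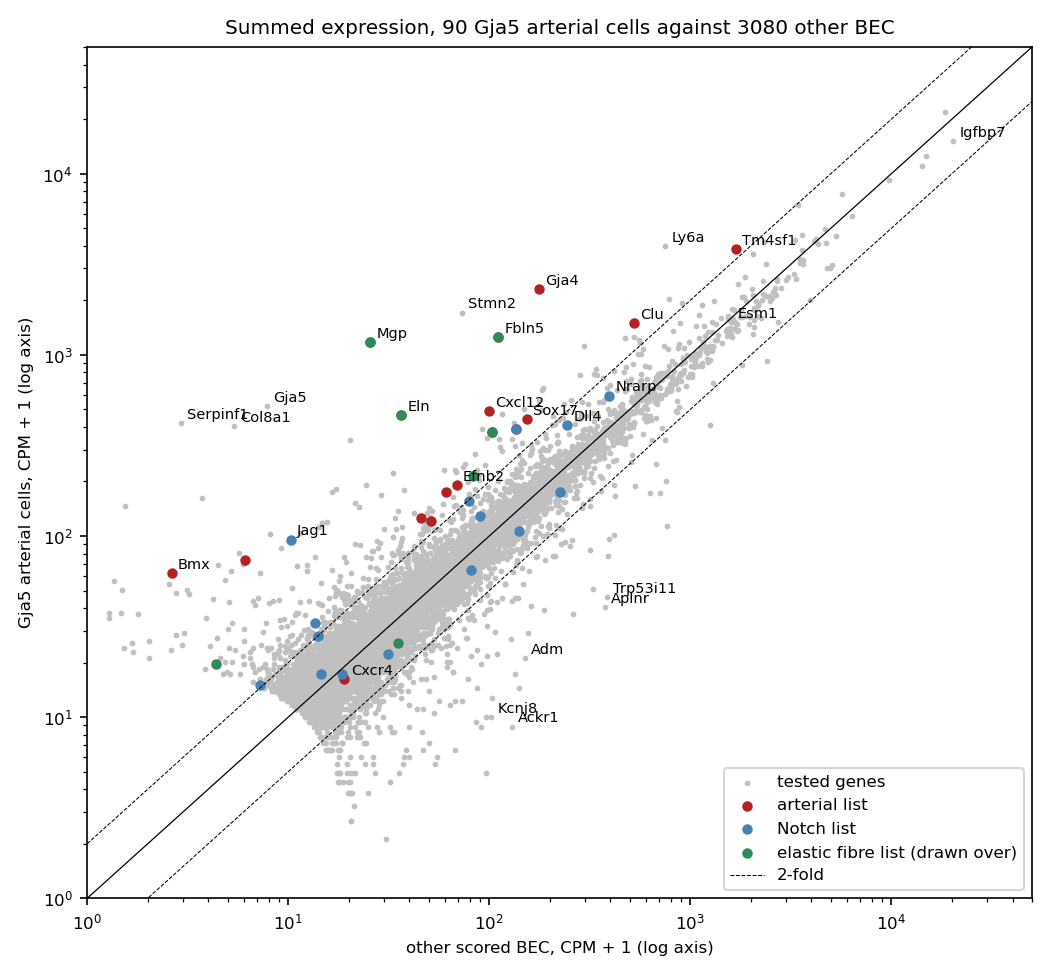
Summed CPM plus 1 of the 7368 compared genes in the 90 Gja5 arterial cells (vertical, log axis) and the 3080 other scored BEC (horizontal, log axis), with the arterial, Notch and elastic fibre lists coloured and 2-fold limits dashed. Gja4, Fbln5, Eln and Mgp lie far above the upper limit, Cxcr4 lies within the limits, and Kcnj8, Adm, Trp53i11 and Aplnr lie below the lower limit.

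The regions upstream of genes that stand for the 2 patterns described here are printed to show their sequence. Gja5 and Gja4 are the connexin genes shared by the members, and Fbln5 and Esm1 are genes high at opposite ends of the order within the members described further on. The 250 bases before the RefSeq start are given 5′ to 3′ on the gene's strand (GRCm38.p6). They are chr3:97032152-97032401 for Gja5 (plus), chr4:127314040-127314289 for Gja4 (minus), chr12:101819120-101819369 for Fbln5 (minus, 1 of 2 listed starts) and chr13:113209409-113209658 for Esm1 (plus). The Gja5 window lies inside the GENCODE interval given above (96904693 to 97077416), because the RefSeq start used here differs from the start of that interval. Capitals mark matches, on either strand, to TGGGAA (the core bound by the Notch effector RBPJ), AACAAT (a SOX core) or CACCC (a KLF core).
Gja5: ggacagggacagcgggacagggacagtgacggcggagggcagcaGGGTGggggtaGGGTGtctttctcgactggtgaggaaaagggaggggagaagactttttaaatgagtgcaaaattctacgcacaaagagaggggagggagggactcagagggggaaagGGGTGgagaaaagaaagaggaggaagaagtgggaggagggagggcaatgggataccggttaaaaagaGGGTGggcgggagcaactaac
Gja4: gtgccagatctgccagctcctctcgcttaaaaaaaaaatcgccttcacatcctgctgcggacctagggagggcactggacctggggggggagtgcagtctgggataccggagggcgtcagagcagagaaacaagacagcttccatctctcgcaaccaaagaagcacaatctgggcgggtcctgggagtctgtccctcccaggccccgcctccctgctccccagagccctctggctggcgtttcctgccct
Fbln5: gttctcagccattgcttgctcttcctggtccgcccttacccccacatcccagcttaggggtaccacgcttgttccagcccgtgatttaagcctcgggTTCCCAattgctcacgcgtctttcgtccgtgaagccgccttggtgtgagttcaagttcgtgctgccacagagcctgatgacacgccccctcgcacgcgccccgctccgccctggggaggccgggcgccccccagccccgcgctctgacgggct
Esm1: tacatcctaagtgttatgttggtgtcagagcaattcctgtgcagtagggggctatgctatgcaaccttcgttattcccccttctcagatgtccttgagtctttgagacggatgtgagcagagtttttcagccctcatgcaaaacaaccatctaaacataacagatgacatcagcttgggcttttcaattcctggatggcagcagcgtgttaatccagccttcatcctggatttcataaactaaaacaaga
Gja5 had 4 matches to the KLF letters, Fbln5 had 1 match to the RBPJ letters, and Gja4 and Esm1 had none of the 3. Of 32851 promoter windows of this length, 21.6% held the RBPJ letters, 9.42% the SOX letters and 52.0% the KLF letters. Among 12 of the 14 highest-ranked genes that matched the table, 4, 2 and 4 windows did, and among 12 matched arterial markers 3, 0 and 5. Among 7 matched genes each of the highest and the lowest correlations with Fbln5, 1, 0 and 3 and 1, 1 and 4 windows did. A match is a string of letters and was not tested as a binding site.

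Notch pathway genes, of which the ligands on arterial cells activate receptors on their neighbours, were higher in part. Of 15 compared genes, 4 were at least 2-fold higher and 0 at least 2-fold lower, with a median log2 ratio of 0.59. The ligand gene Jag1 was at 94.5 CPM against 9.29 CPM, 10.2-fold higher (8.52 to 12.1), and was found in 44.4% of the members and 8.57% of the other scored BEC. The ligand gene Jag2 was at 32.1 against 12.6 CPM and the effector gene Rbpj at 14.1 against 6.26 CPM. Hey1, a transcriptional target of Notch, was at 387 against 135 CPM, 2.86-fold higher (2.64 to 3.09), with a median of 3.34 UMIs per 10000 in the members and 0.324 in the other scored BEC. The tip cell ligand gene Dll4 did not reach 2-fold, at 410 against 243 CPM, nor did the receptor genes Notch1 (128 against 89.0 CPM) and Notch4 (154 against 78.3 CPM) or the target Nrarp (594 against 394 CPM). Of the connexins, Gja1, which encodes connexin 43, was at 434 against 384 CPM.

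Transcription factors with arterial and venous roles differed in opposite directions. Among the SoxF genes, Sox17 was at 439 against 153 CPM, 2.88-fold higher (2.67 to 3.10), and was the 1 member of 3 past 2-fold; Sox18 was at 201 against 126 CPM and Sox7 at 36.6 against 46.4 CPM. Of 16 other endothelial factors, 4 were at least 2-fold higher and 2 lower, with a median of 0.16. Epas1, which encodes the hypoxia-inducible factor HIF-2alpha, was at 556 against 177 CPM with medians of 4.78 and 1.37 UMIs per 10000. Tcf15, Lyl1 and Gata2 were the other 3, at log2 ratios of 1.25, 1.26 and 1.02. Nr2f2, the venous regulator, was at 3.37 against 31.2 CPM, a count of 6 UMIs in the members, and Meox1 was at 38.2 against 187 CPM.

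Genes linked to blood flow, by sensing it or by responding to it, were mixed. Of 13 compared, 5 were at least 2-fold higher and 2 lower (median 0.52). The shear-induced factor genes Klf2 and Klf4 were at 1941 against 906 CPM and 495 against 182 CPM, the nitric oxide synthase gene Nos3 at 129 against 57.0 CPM, Heg1 at 292 against 115 CPM and the taurine transporter gene Slc6a6 at 132 against 47.8 CPM. A single member held 26.4% of the Slc6a6 UMIs. The cyclooxygenase gene Ptgs1 was at 5.62 against 66.5 CPM and the potassium channel gene Kcnj2 at 4.50 against 18.6 CPM. The 67 cells with a high arterial score and no Gja5 UMI had like levels, at 1793 CPM of Klf2 and 448 CPM of Klf4. Against them 0 of 12 flow genes were at least 2-fold higher in the members and 1 lower. Levels in the Ackr1, Selp and Vwf cells were 1349 and 304 CPM. The other classes were at 701 to 903 CPM of Klf2 and 120 to 203 CPM of Klf4. Klf2 and Klf4 also respond to tissue dissociation. Of 15 immediate-early genes, 1 was at least 2-fold higher in the members (Hspa1a, at 109 against 53.5 CPM) and 0 lower, with a median of 0.30, and Fos was at a log2 ratio of 0.13; the part of dissociation in the Klf2 and Klf4 values was not tested.

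Genes of the vessel wall divided by the kind of matrix. Of 7 compared elastic fibre genes, 6 were at least 2-fold higher and 0 lower, with a median of 2.16; 4 of the 6, Eln, Fbln5, Mgp and Ltbp4, also belong to the arterial list. For 13 genes of the basement membrane, 2 were higher, 1 was lower and the median was -0.49. The laminin chain genes Lama5 and Lamb2 were at 79.9 against 31.8 CPM and 75.4 against 27.8 CPM, while Col4a1 was at 480 against 855 CPM, Col4a2 at 554 against 858 CPM and Col15a1 at 77.1 against 212 CPM. Ltbp4, which binds latent TGF-beta and guides elastic fibre assembly, was at 375 against 102 CPM, 3.68-fold higher (3.39 to 3.98). Elastin itself, Eln, was at 462 against 35.4 CPM and Mgp, which encodes matrix Gla protein, an inhibitor of calcification, at 1180 against 24.6 CPM.

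Several of these matrix values came from few members. A single cell held 31.7% of the Mgp UMIs of the members and 10 cells held 98.1%; without that cell Mgp was at 806 CPM. For Eln, 1 cell held 22.1% and 10 cells 92.7%, and the sum without it was 360 CPM. The short-chain collagen gene Col8a1 was spread more widely, found in 48 members, at 403 against 4.39 CPM, and Serpinf1, which encodes pigment epithelium-derived factor, in 39 members, at 421 against 1.92 CPM. Gkn3 and Cytl1 had UMIs in 10 and 4 members. Only 15 members had no UMI of the mural, lymphatic, leukocyte and melanocytic marker lists. Those lists include genes also found in the other scored BEC, such as Kcnj8 at 101 CPM. In these 15 members, 16 arterial markers and 3 elastic fibre genes were at least 2-fold higher, while Mgp, Gkn3 and Cytl1 had log2 ratios of -2.20, -0.63 and -1.90. Over all compared genes, 1140 were then higher and 986 lower, against 367 and 274 with all members. Few cells raise such counts by construction. The number of genes compared was not kept for the 15 members, so their counts of markers have no background share. Col8a1, Serpinf1, Gkn3 and Cytl1 were chosen after their values were seen.

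Signals from endothelium to the smooth muscle and pericytes of the wall were often higher. Of 10 compared genes, 5 were at least 2-fold higher and 1 lower (median 0.99). The growth factor genes Pdgfa and Pdgfd were at 68.6 against 11.4 CPM and 148 against 57.6 CPM, the vasoconstrictor gene Edn1 at 120 against 50.3 CPM and the angiotensin-converting enzyme gene Ace at 133 against 41.1 CPM. The lower gene was Adm, which encodes the vasodilator adrenomedullin, at 20.2 against 150 CPM. Pdgfb, the main attractant of pericytes, had a log2 ratio of 0.14. Among 16 genes of BMP and TGF-beta signalling, 4 were higher and 1 lower (median 0.66); the ligand genes Tgfb2 (54.0 against 13.6 CPM) and Bmp4 (47.2 against 21.2 CPM) and the inhibitor gene Smad6 (65.2 against 26.3 CPM) were higher together with Tmem100, and Smad1 was lower, at 53.4 against 119 CPM.

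The lower genes of the ranking were mostly channel, enzyme and tip cell genes. Kcnj8, a potassium channel gene also known from pericytes, had 16 UMIs in the members and was at 101 CPM in the other scored BEC, a ratio of 0.0889 (0.0508 to 0.145). Its highest member had 2.63 UMIs per 10000, against 27.1 in the other scored BEC. Trp53i11 was at 45.0 against 382 CPM, and the members ranged from 0 to 5.70 UMIs per 10000 with a median of 0, where the Apln, Tnfrsf9 and Kit cells had a median of 9.11. The mechanically gated channel gene Piezo2 (4.50 against 52.6 CPM), the phosphodiesterase gene Pde2a (5.06 against 54.0 CPM), the sulfotransferase gene Chst1 (8.44 against 84.6 CPM) and the aldo-keto reductase gene Akr1b8 (16.3 against 133 CPM) were lower as well. In the Ackr1, Selp and Vwf cells Kcnj8, Trp53i11 and Adm were within 2-fold of the members, at 11.8, 62.0 and 28.3 CPM. Log2 ratios of the members over that class were -5.09 for Ptgs1, -1.52 for Piezo2, -3.11 for Pde2a, -1.81 for Chst1 and -1.53 for Akr1b8. In the 67 cells with a high arterial score and no Gja5 UMI, Kcnj8, Trp53i11 and Adm were at 18.6, 73.0 and 20.9 CPM.

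Of 10 tip cell genes, which mark the leading cells of vascular sprouts, 1 was at least 2-fold higher (Unc5b) and 3 lower (Adm, Trp53i11 and Angpt2), with a median of -0.63. Esm1 (chromosome 13, 113209659 to 113218098, plus strand), an endothelial proteoglycan gene of sprouting vessels, was at nearly the same level in both groups, 1518 against 1593 CPM. Of 6 compared capillary genes, 1 was higher and 1 lower (median -0.76), with Slc9a3r2 at 1242 against 471 CPM, Rgcc at 410 against 1254 CPM and the fenestral diaphragm gene Plvap at 2999 against 4941 CPM. Of 9 fatty acid uptake genes, 1 was higher (Slc27a3) and 1 lower (Angptl4), and the lipase anchor gene Gpihbp1 was at 2009 against 3912 CPM. Of 10 VEGF and angiopoietin genes, 1 was higher (Ptprb, at 565 against 254 CPM) and 2 lower (Angpt2 and Nrp2), and the receptor genes Kdr and Flt1 had log2 ratios of 0.29 and 0.12.

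Among the lists of inflammation, the chemokine list had the most genes past 2-fold. Of 7 chemokine genes, 3 were higher, with Cxcl12 and the membrane chemokine gene Cx3cl1 (27.6 against 9.46 CPM) beside Cxcl2, of which 1 member held 86.8% of the UMIs, and 1 was lower, Ccl2. Of 12 interferon genes 1 was higher and 0 lower (median 0.21), and of 6 leukocyte adhesion genes 1 was higher, Vcam1, at 55.1 against 16.9 CPM, and 0 lower. No MHC class I gene of 6 and no glycolysis gene of 13 differed by 2-fold. Of 7 hypoxia genes, 0 were higher and 2 lower (Adm and Ankrd37), with a median of -0.30. Of 9 guidance genes, 1 was higher (Efna1) and 1 lower (Nrp2), of 8 venous genes 1 was higher (Vcam1) and 1 lower (Nr2f2), and of 8 junction genes 0 were higher and 1 lower (Jam3).

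**Figure D3:**
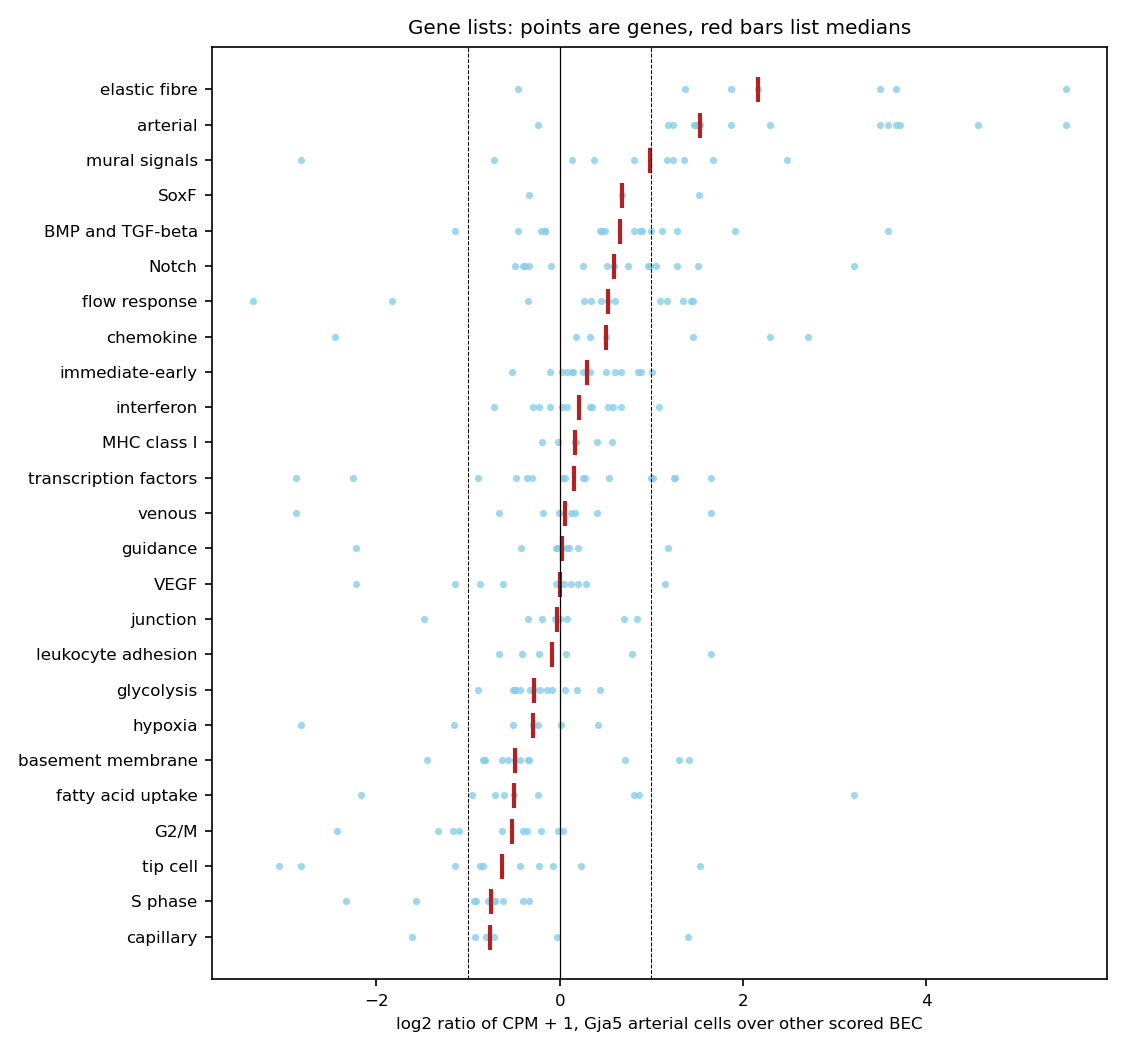
Log2 ratio of CPM plus 1 in the Gja5 arterial cells over the other scored BEC (horizontal) for each compared gene of 25 lists (points), with list medians in red and 2-fold limits dashed. Connexins, which include Gja5 of the rule, and sphingosine 1-phosphate genes are not drawn. Among the 25 drawn, the elastic fibre and arterial lists have the highest medians, 2.16 and 1.53, and the capillary list the lowest, -0.76; some genes belong to more than 1 list.

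Cell cycle genes were at lower sums in part. Of 10 S-phase genes 2 were at least 2-fold lower (Mcm2 and Rrm2), and of 10 G2/M genes 4 were lower (Top2a, Cdk1, Ccnb1 and Aurkb), with 0 higher in both lists. At least 10 UMIs of the G2/M genes were found in 5 of 90 members (5.56%, 1.83 to 12.5%) and in 10.6% of the other scored BEC (9.49 to 11.7%). After thinning to 5000 UMIs, 7.78% (3.18 to 15.4%) and 10.4% (9.36 to 11.6%) had at least 3. These intervals cover counting error only, and single cells are not replicates, so a difference between the shares was not tested. At least 10 such UMIs were found in 3.56% of the Npr3, Vegfc and Dkk2 cells and 6.32% of the Ackr1, Selp and Vwf cells. In the Aplnr and Ramp3 cells and the Apln, Tnfrsf9 and Kit cells the shares were 7.30% and 8.76%. Against these classes, in the same order, 0 of 8, 0 of 9, 0 of 9 and 3 of 10 G2/M genes were lower in the members. Only against the first class was a G2/M gene higher (1 of 8).

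Markers of other cell types were at like or lower sums in the members. Pan-endothelial markers had 0 of 10 genes higher and 1 lower, and blood endothelial markers 0 of 8 in either direction. The 10 mural markers summed to 243 CPM in the members and 238 CPM in the other scored BEC, with 1 of 4 compared genes higher (Acta2) and 3 lower (Kcnj8, Abcc9 and Tagln), and Myh11, Notch3 and Cspg4 were at 0. A single member held 40.8% of the Acta2 UMIs; 5 members had 10 or more, and 0 of these had a UMI of Myh11, Notch3 or Cspg4. Acta2 is itself in the mural list, and in the 15 members without a UMI of such lists its log2 ratio was -4.60. The 7 lymphatic markers summed to 41.6 against 155 CPM, with Pdpn, Prox1 and Reln at 0, the 6 fibroblast markers to 0 against 7.63 CPM, the 5 leukocyte markers to 1.12 against 8.28 CPM and the 7 macrophage markers to 3.37 against 4.83 CPM. Because Stmn2 is best known from neurons, 8 other neuronal markers were summed too, to 123 against 128 CPM, with 6 of them at 0 in the members.

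The members were then compared with single classes of BEC. Against the 466 Aplnr and Ramp3 cells, 16 of 17 arterial markers were at least 2-fold higher in the members (background 6.35% of genes higher and 4.20% lower), and against the 388 Apln, Tnfrsf9 and Kit cells 15 were higher and 1 lower (background 8.05% and 4.74%). Against the 285 Ackr1, Selp and Vwf cells, 13 were higher and 0 lower (background 7.06% and 6.73%). Against the 422 Npr3, Vegfc and Dkk2 cells, 11 were higher and 1 lower (background 4.86% and 3.37%). Of the 4 classes it had the highest levels of Gja4, Hey1, Efnb2 and Dll4, with Gja4 at 383 CPM, Hey1 at 312 CPM, Efnb2 at 144 CPM and Dll4 at 447 CPM, and it had 1 of 13 Notch genes at least 2-fold below the members and 0 above. Its elastic fibre genes were low, with Fbln5 at 31.8 CPM, Eln at 2.61 CPM and Mgp at 8.41 CPM, and 5 of 6 such genes were higher in the members. The Ackr1, Selp and Vwf cells had the opposite pattern, with Fbln5 at 721 CPM, Eln at 318 CPM and Mgp at 151 CPM beside Gja4 at 27.2 CPM and Hey1 at 19.0 CPM. Only 2 of 7 elastic fibre genes were at least 2-fold higher in the members than in that class. The classes were chosen by sets scored on the same cells.

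Both parts of the rule changed which cells were taken. The 77 other cells with at least 2 Gja5 UMIs were at 210 CPM of Gja5 and 30.3 CPM of Stmn2, and the 67 cells with a high arterial score and no Gja5 UMI were at 1551 CPM of Stmn2. Gja4 was at 840 CPM in the first group and 930 CPM in the second, between the members (2315 CPM) and the other classes. Jag1 was at 15.1 and 11.9 CPM, Bmx at 5.41 and 0.745 CPM and Serpinf1 at 15.1 and 14.9 CPM, far below the members. Against the first group 9 of 17 arterial markers were at least 2-fold higher in the members and 1 lower (background 5.41% and 3.95%), and against the second 9 of 18 were higher and 0 lower (background 5.77% and 4.28%). Esm1 was at 2912 CPM in the first group and Cxcl12 at 536 CPM in the second, so neither group was a weaker copy of the members in every gene. These groups were defined after values had been seen.

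The members were not uniform, and wide differences among them followed Fbln5. This gene was picked as the order after correlations and principal components among the members had been looked at, so the values below are a description. Of the 90 members, 25 had no Fbln5 UMI, and those with Fbln5 were divided at their median into 32 Fbln5-low members (0.365 to 15.2 UMIs per 10000) and 33 Fbln5-high members (15.5 to 54.6). Median depths were 18415, 20003 and 18307 UMIs and median mitochondrial shares 4.25, 2.44 and 3.45%. The arterial z, which does not use Fbln5, had medians of 3.45, 3.54 and 5.53. Between the Fbln5-high members and those without Fbln5, 1017 of 7330 genes (13.9%) were at least 2-fold higher and 1141 (15.6%) at least 2-fold lower, with a median log2 ratio of -0.02. After each member was thinned to 6000 UMIs the first count was 1529.

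Matrix genes were higher toward the Fbln5-high end. The fibulin gene Fbln2 had the highest correlation with Fbln5 among genes found in at least 50% of the members (r of 0.73 over 90 cells), with 14.7, 135 and 444 CPM in the 3 groups. In single cells it ran from 0 to 2.71 UMIs per 10000 in members without Fbln5 and from 0 to 12.8 in the Fbln5-high members. Col8a1 was at 14.7, 187 and 924 CPM, the serine protease gene Htra1 at 25.1, 106 and 812 CPM, and Serpinf1 at 23.0, 367 and 779 CPM. Eln had 0 UMIs in members without Fbln5 and 1199 CPM in the Fbln5-high members, at least 191-fold higher against a floor of 3 UMIs over the group (6.28 CPM). Mgp was at 23.0, 289 and 2993 CPM. Of 8 compared elastic fibre genes, 7 were at least 2-fold higher in the Fbln5-high members and 0 lower (background 13.9% and 15.6%). Fbln5 is among the higher ones.

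The 9 members with 10 or more Mgp UMIs all had 10 or more Fbln5 UMIs and at least 1 Eln UMI. None of them had 10 or more Esm1 UMIs, a level found in 44 members. The tight junction gene Cldn5 was at 105, 408 and 1894 CPM, the membrane protein gene Tm4sf1 at 1686, 3836 and 5397 CPM, Ly6a at 2206, 3618 and 5744 CPM, the transcription cofactor gene Lmo2 at 117, 467 and 745 CPM and Klf2 at 1043, 1643 and 2933 CPM. Of 15 immediate-early genes, 5 were at least 2-fold higher in the Fbln5-high members than without Fbln5 and 0 lower (background 13.9% and 15.6%).

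Genes of sprouting and fenestrated tumor vessels went the other way. The water channel gene Aqp1 had the lowest correlation (r of -0.79), at 6397, 2954 and 531 CPM, with 17.0 to 127 UMIs per 10000 in members without Fbln5 and 0.574 to 39.9 in the Fbln5-high members. Esm1 (r of -0.73) was at 3642, 1225 and 224 CPM, 16.2-fold higher without Fbln5 (13.7 to 19.4), with medians of 32.9, 4.87 and 1.34 UMIs per 10000. The near equality of Esm1 between all members and the other scored BEC was thus a mean over members far above and far below it. The protease gene Prss23 was at 2199, 854 and 171 CPM, Plvap at 5693, 2779 and 1199 CPM, Angpt2 at 894, 222 and 41.1 CPM and the VEGF receptor genes Kdr and Flt1 at 888, 416 and 250 CPM and 2063, 1317 and 638 CPM. Basement membrane genes were lower in the Fbln5-high members by at least 2-fold in 8 of 13 cases and higher in 0, and of 10 tip cell genes 5 were lower and 1 higher. Of 8 blood endothelial markers 0 were higher and 4 lower. Over all genes of this comparison, 13.9% were higher and 15.6% lower. The summed lymphatic and melanocytic markers were at 30.0 and 33.2 CPM in the Fbln5-high members, against 54.5 and 25.1 CPM without Fbln5. Part of this order was also found outside the members. Over the other scored BEC, correlations with Fbln5 were 0.54 for Fbln2, 0.53 for Eln and 0.45 for Htra1, against 0.73, 0.53 and 0.60 in the members. Those of Col8a1, Tm4sf1, Aqp1 and Esm1 were weaker there, at 0.11, 0.19, -0.07 and -0.33, against 0.66, 0.71, -0.79 and -0.73. Gpihbp1, Igfbp7 and Igfbp3 kept more of their negative correlation there, at -0.51, -0.43 and -0.43, against -0.69, -0.70 and -0.54.

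The summed mural markers were higher at the Fbln5-high end, at 88.0, 91.4 and 520 CPM in the 3 groups, with a mural UMI in 12 of 25, 10 of 32 and 15 of 33 members. The rise was mostly in Acta2, a smooth muscle actin gene, at 4.19, 64.4 and 463 CPM (2, 43 and 293 UMIs); its median over single cells was 0 in each group. Of the other mural markers, Abcc9 was lower (17, 1 and 0 UMIs), Tagln was at 27.2, 7.49 and 39.5 CPM, and Pdgfrb and Des had 2 and 1 UMIs, all in the Fbln5-high members. Cspg4, Myh11 and Notch3 were at 0 in each group. When members with any mural UMI were left out, an alternative chosen after seeing the data, 13 members without Fbln5 and 18 Fbln5-high members were left. All 7 elastic fibre genes compared among these were at least 2-fold higher in the Fbln5-high members. Fbln5, by which the groups were cut, is on that list. Of all 7136 genes compared, 1399 were at least 2-fold higher and 1521 at least 2-fold lower. Fbln2 was then at 29.0 and 277 CPM, Col8a1 at 14.5 and 624 CPM, Mgp at 9.68 and 2372 CPM and Esm1 at 3967 and 314 CPM. Eln was at 0 and 194 CPM, against 1199 CPM with all Fbln5-high members.

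**Figure D4:**
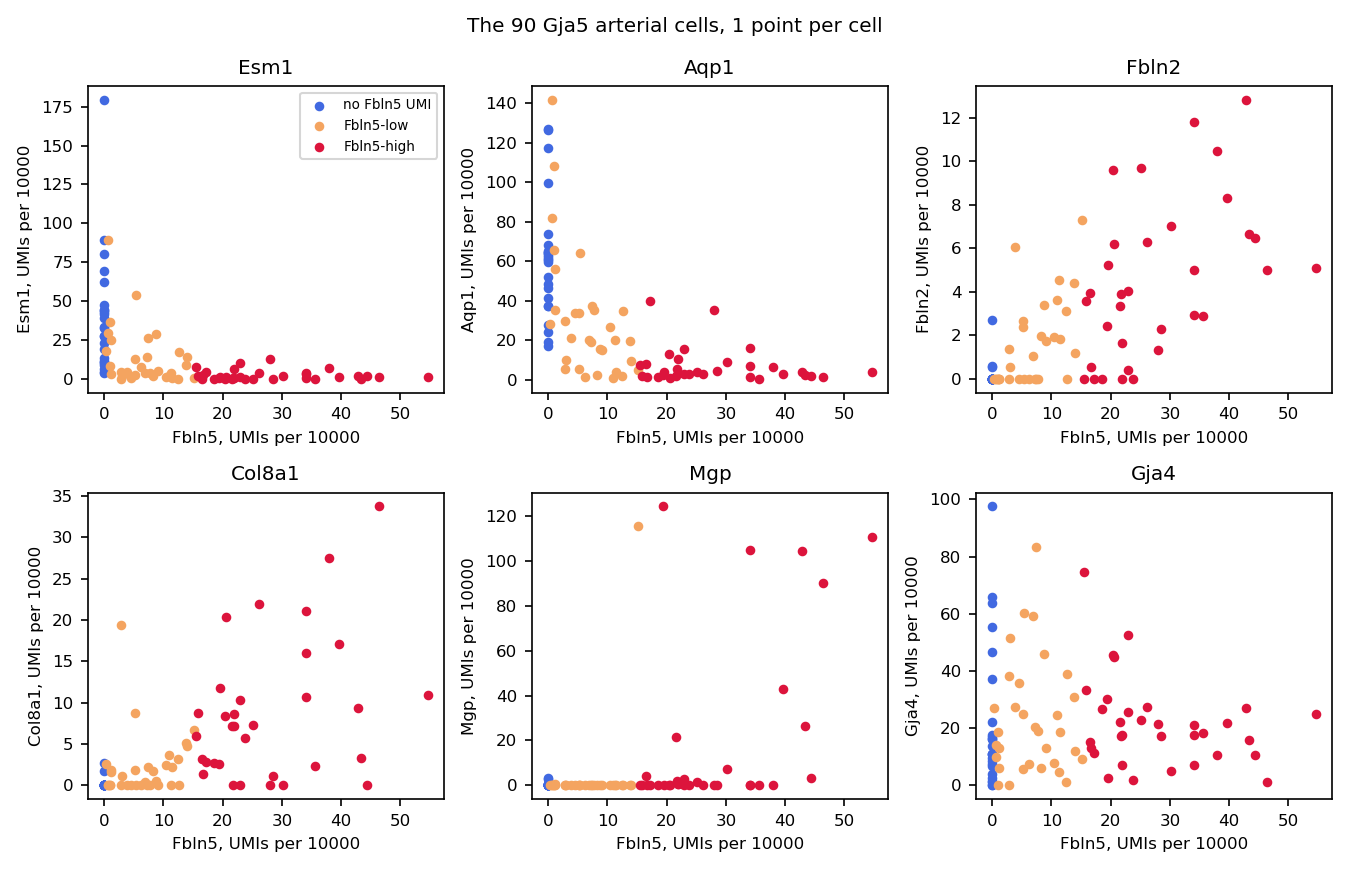
Fbln5 (horizontal) against 6 other genes (vertical) in UMIs per 10000, 1 point for each of the 90 Gja5 arterial cells, coloured by the 3 Fbln5 groups. Esm1 and Aqp1 are high where Fbln5 is low, Fbln2 and Col8a1 are high where Fbln5 is high, Mgp is high in few cells, and single cells high in Gja4 are found in all 3 groups.

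The summed level of Gja4 did not follow this order, at 2233, 2419 and 2268 CPM, a ratio of 1.02 between the outer groups (0.938 to 1.10). Its medians over single cells were 10.96, 18.69 and 18.35 UMIs per 10000, lower without Fbln5, where 2 cells with 230 and 151 UMIs held 381 of the 1066 Gja4 UMIs; without these 2 cells that group was at 1590 CPM. Gja5, which the rule used, was at 394, 383 and 763 CPM. Of 16 compared Notch genes, 5 were at least 2-fold higher in the Fbln5-high members than without Fbln5 (background 13.9%) and 3 lower (background 15.6%). Dll1, Jag1, Jag2, Hey2 and Rfng were higher, and Notch1, Notch4 and Nrarp were lower. The higher ones included 3 ligand genes: Jag1 at 58.7, 61.4 and 156 CPM, Jag2 at 23.0, 22.5 and 49.0 CPM and Dll1 with 0, 8 and 21 UMIs. Hey2 had 1, 0 and 12 UMIs and Rfng 5, 10 and 14 UMIs. The receptor genes Notch1 and Notch4 were at 191, 130 and 77.4 CPM and 235, 147 and 101 CPM. Among more abundant genes of the list, Dll4 was at 503, 345 and 409 CPM, Hey1 at 553, 369 and 281 CPM and Nrarp at 823, 605 and 411 CPM. Efnb2 was at 249, 178 and 158 CPM. Sox17 was at 293, 378 and 614 CPM. Among the members without Fbln5, 7 of 15 arterial markers were at least 2-fold above the other scored BEC and 2 below (background 9.55% and 7.98%): Gja4, Efnb2, Hey1, Cxcl12, Mecom, Ltbp4 and Unc5b were above. In the Fbln5-high members, 16 of 18 were above and 1 below (background 10.0% and 9.79%). Fbln5 is itself an arterial marker, so its place in both counts was set by the split. Of the Notch genes, 8 of 14 were at least 2-fold above the other scored BEC in the members without Fbln5, 3 of 15 in the Fbln5-low members (background 7.32% and 7.62%) and 4 of 14 in the Fbln5-high members, with 0 below in each.

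**Figure D5:**
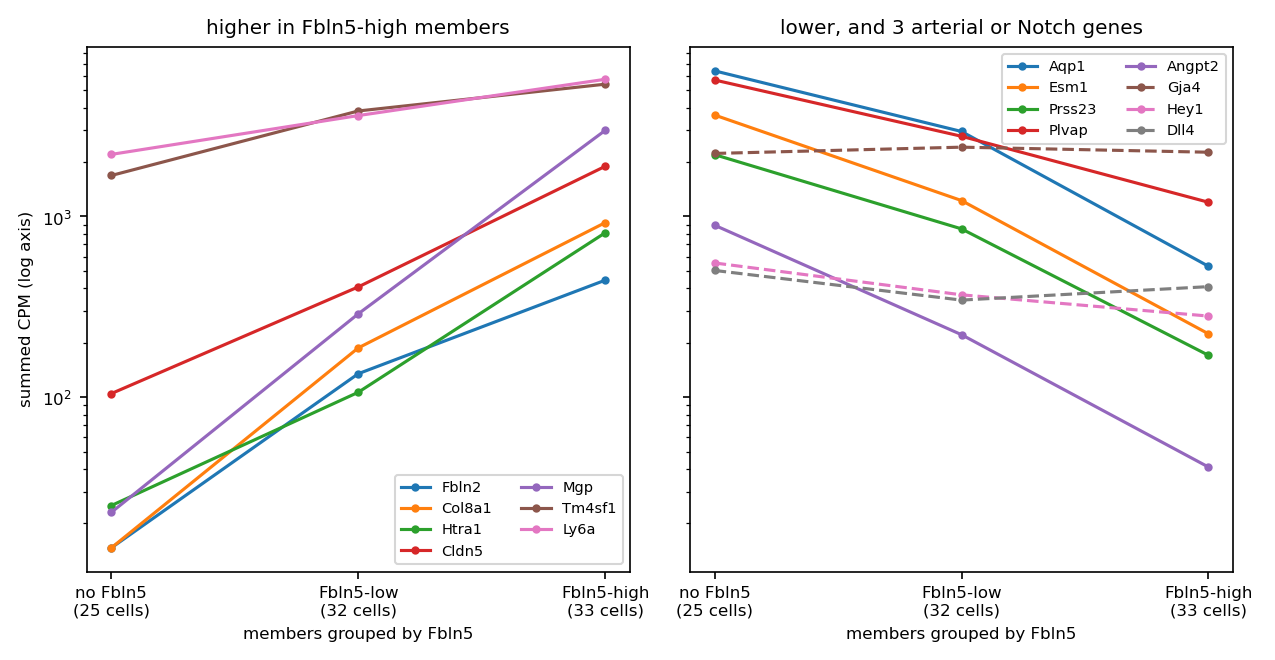
Summed CPM (log axis) of 15 genes in the 3 groups of Gja5 arterial cells by Fbln5, with Gja4, Hey1 and Dll4 dashed. Fbln2, Col8a1, Htra1 and Mgp climb by more than 10-fold, Aqp1, Esm1, Prss23 and Angpt2 drop by more than 10-fold, and Gja4 stays between 2233 and 2419 CPM.

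Cycle genes did not give a clear order. All 7 compared G2/M genes were at least 2-fold higher in the Fbln5-high members than without Fbln5, but 2 cells held 252 of their 281 G2/M UMIs. The count of members with 10 or more G2/M UMIs was 0 without Fbln5, 3 in the Fbln5-low and 2 in the Fbln5-high members.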

How the data were processed

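Droplet single-cell libraries were made from BEC and LEC sorts of MT-ret tumors. The authors deposited raw UMI counts of 28692 genes in 7635 cells. The aligner and build were Cell Ranger 2.1.1 and mm10, per the submitters' processing notes. How cells were filtered before deposit is not stated in the labels. Free RNA, doublets and 3′ counting can shift single values. UMI counts were summed over cells and scaled to CPM, with exact Poisson, conditional binomial and Clopper-Pearson intervals (Python 3.11.15, numpy 2.4.6, scipy 1.17.1, pandas 2.3.3, matplotlib 3.10.9). No test was run, because each sort is 1 sample and the members were chosen on the same counts. The sums and intervals were tried on simulated Poisson counts in which all members shared 1 profile. That setting does not test the intervals for genes held by few cells.

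The members and lists were chosen with earlier results of these data known. Named genes were the 14 highest and 8 lowest log2 ratios, over genes that reached 50 CPM in the higher group, were found in 25% or more of that group's cells and had at most 10% of their UMIs there in 1 cell, without mitochondrial, ribosomal, haemoglobin, unnamed and scored genes. To these were added the 14 scored genes, all arterial, Notch, connexin, SoxF and transcription factor genes, the 4 most abundant genes of each other list and the 8 most like Gja5. Other genes printed were chosen after their values were seen. Genes described along Fbln5 were the 10 highest and 10 lowest correlations with it and further genes chosen after their values were seen. The cycling call replaced a looser one that marked far more cells. The results of the erythroid, platelet, Schwann cell, muscle, adipocyte, keratinocyte and sphingosine 1-phosphate lists are in the closing section. Promoter sequences came from RefSeq, GRCm38.p6, and 12 of 14 ranked genes and 12 of 18 arterial markers matched.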

Additional observations from a re-analysis of the deposited data

Results flagged for a closer look

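The LEC sort was not used in the comparisons, yet 4 of its 4119 cells without pigment or stromal UMIs over the limits met the rule for Gja5 arterial cells (0.0971%, exact interval 0.0265 to 0.248%). The share is above the 0.0728% that a count of 0 allows (3 counts of the total), though its interval reaches below that limit, so the 4 cells are given as values only. The 4 cells had 15, 15, 3 and 1 Gja5 UMIs and 4, 102, 34 and 0 Gja4 UMIs, in the same order. Lyve1, a lymphatic receptor gene, had 12, 0, 27 and 37 UMIs, and the 7 lymphatic markers summed to 31, 13, 70 and 473 UMIs. The second cell thus had Gja4 and no Lyve1, and the other 3 carried Lyve1 beside Gja5.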

How the results depend on the processing

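Thresholds of z over 1.5 and over 3, 2 or more Gja5 UMIs, size factors, other filters and other comparison cells kept the number of members and the counts of genes, arterial markers and elastic fibre genes within 1.5 times. Without the demand for a Gja5 UMI there were 157 members, with 235 genes higher and 143 lower, and Ccl21a and Mmrn1 turned to log2 ratios of 1.28 and 0.44 (Ccl21a has near-identical copies, so its value is uncertain). Thinning each cell to 6000 UMIs before scoring gave 82 members, 75 of them shared, with 413 genes lower, and Hba-a1 turned to 0.67. A minimum of 1 CPM gave 824 genes higher and 941 lower, and 50 CPM gave 139 and 80. Leaving out members with a UMI of the mural, lymphatic, leukocyte or melanocytic lists kept 15 members, with 1140 genes higher, 986 lower and 3 elastic fibre genes higher. Mgp, Hey2, Gjc1, Acta2, Gkn3, Cytl1 and Pi16 then had log2 ratios of -2.20, -0.25, -2.51, -4.60, -0.63, -1.90 and -0.36. With members thinned, 1529 genes were higher in the Fbln5-high members; at 50 CPM the split was 243 and 273. The low minimum, thinning and few cells raise such counts by construction; the cause of the other shifts was not tested. Size factors shifted log2 ratios by -0.036. The alternatives on the Fbln5 order were added after seeing the data. No paired analysis was possible because the cell names carry no library number, and leaving out single libraries was not run for the same reason. With 90 members, 3 UMIs are 1.69 CPM, so genes near that level could not be compared.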

Other observations

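Some lists of other tissues and pathways were at low levels in the Gja5 arterial cells. The 4 erythroid markers summed to 1.12 CPM against 9.25 CPM in the other scored BEC, the 5 platelet markers to 14.6 against 25.9 CPM, the 4 Schwann cell markers to 2.81 against 3.56 CPM and the 4 keratinocyte markers to 13.5 against 10.2 CPM. The 5 muscle markers summed to 0.562 against 0.943 CPM and the 4 adipocyte markers to 0 against 0.103 CPM. Of 5 compared sphingosine 1-phosphate genes none differed by 2-fold, with a median log2 ratio of -0.22 and the receptor gene S1pr1 at 238 against 183 CPM.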
